A study of Mus musculus with 6 samples.

Results

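The Serpina genes encode clade A serpins, the family of secreted proteins named after alpha-1-antitrypsin, and their levels were compared between hepatocytes of AEG-1 transgenic mice (TG) and hepatocytes of wild-type mice (WT). Members were the genes whose probe sets carry a single symbol that starts with Serpina and a digit in the platform annotation. This gave 10 probe sets for 8 genes, Serpina10, Serpina6, Serpina1b, Serpina1c, Serpina12, Serpina5, Serpina3a and Serpina3n, of 22690 probe sets and 12393 genes in all. The family was chosen by its values in the same comparison of TG with WT, because several of its genes were higher in the TG arrays, so its differences between the genotypes are a description. The intervals and the side of the threshold given for members are read off the model across all genes, do not test the family and support nothing further. Serpina3k, Serpina3g and Serpina7 are not analysed here, since the annotation used names no probe set for them.

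TG mice carry Alb/AEG-1, a transgene for hepatocyte-specific overexpression of AEG-1, the product of Mtdh, also known as astrocyte elevated gene 1. Alb stands for albumin, a gene whose promoter is active in hepatocytes. Both groups are of a mixed B6/CBA strain, received no treatment, and each has 3 Affymetrix arrays of total RNA from primary hepatocytes harvested 24 h after plating on collagen. The labels call the arrays biological replicates and give no age, no sex and no number of animals or transgenic founder lines. SDs below therefore measure the spread between these samples. SEs and intervals come from a model that moderates each variance toward a value shared across all genes or probe sets. Without moderation the SE was 0.015 instead of 0.051 for Serpina10 and 0.023 instead of 0.052 for Serpina12. Among the members only Serpina6 had a larger SE without moderation, 0.080 against 0.075.

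Most serpins inhibit proteases by a suicide mechanism. The protease cuts an exposed loop of the serpin, the serpin then changes shape, and the protease is left trapped on it. Clade A members circulate in plasma and are made largely by hepatocytes, but some, such as the corticosteroid carrier encoded by Serpina6, bind hormones and inhibit no protease. In the mouse the alpha-1-antitrypsin and antichymotrypsin genes have each multiplied into a group of related copies, Serpina1 and Serpina3.

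The promoters of 6 of the 8 members are held in RefSeq's table for build GRCm38.p6, as windows of 250 bases before and 50 bases after the start of the gene. Of these, 4 are shown, those of Serpina12 and Serpina3n, which had the largest increases, and those of Serpina1b and Serpina1c, whose differences were nearest to 0. They lie on chromosome 12, Serpina12 at chr12:104044394-104044693 on the minus strand, Serpina3n at chr12:104406458-104406757 on the plus strand, Serpina1b at chr12:103738140-103738439 on the minus strand and Serpina1c at chr12:103904901-103905200 on the minus strand. Each is written 5′ to 3′ in the direction of its gene, with motif matches in capitals.
Serpina12: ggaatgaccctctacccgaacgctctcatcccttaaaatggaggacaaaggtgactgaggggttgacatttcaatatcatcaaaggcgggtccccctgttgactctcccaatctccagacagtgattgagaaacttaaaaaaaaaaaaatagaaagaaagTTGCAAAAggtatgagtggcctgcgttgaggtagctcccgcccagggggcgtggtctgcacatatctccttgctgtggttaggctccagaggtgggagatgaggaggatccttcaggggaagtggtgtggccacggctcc
Serpina3n: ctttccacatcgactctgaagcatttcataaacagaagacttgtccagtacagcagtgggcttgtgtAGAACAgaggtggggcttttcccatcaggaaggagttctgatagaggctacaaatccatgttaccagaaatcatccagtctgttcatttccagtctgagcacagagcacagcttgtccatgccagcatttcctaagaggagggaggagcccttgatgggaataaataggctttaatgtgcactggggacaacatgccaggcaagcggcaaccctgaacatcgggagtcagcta
Serpina1b: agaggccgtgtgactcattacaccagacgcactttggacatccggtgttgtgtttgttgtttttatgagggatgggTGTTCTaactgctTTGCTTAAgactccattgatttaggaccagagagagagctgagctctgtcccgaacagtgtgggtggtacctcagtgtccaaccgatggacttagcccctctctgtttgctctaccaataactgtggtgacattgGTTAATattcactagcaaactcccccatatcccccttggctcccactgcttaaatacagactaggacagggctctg
Serpina1c: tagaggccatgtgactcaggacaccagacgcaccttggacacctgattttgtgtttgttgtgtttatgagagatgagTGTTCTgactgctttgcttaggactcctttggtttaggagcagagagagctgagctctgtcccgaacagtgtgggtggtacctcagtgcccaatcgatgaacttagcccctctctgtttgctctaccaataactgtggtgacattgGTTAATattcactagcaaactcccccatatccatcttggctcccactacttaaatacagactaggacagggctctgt

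Both strands of the windows were searched for 8 motifs of liver and inflammatory regulators, and only some were found in these 4 windows. The search used TTCNNNGAA for STAT3, TTGCNNAA for C/EBP, GTTAAT for HNF1, CAAAGTCCA for HNF4, TGTTCT for the glucocorticoid receptor, AGGTCA for other nuclear receptors, the interferon-stimulated response element core, and TATAAA for the TATA box. Serpina12 held 1 match, a C/EBP element, TTGCAAAA, that starts 90 bases before the start site. Serpina3n held 1 match, the glucocorticoid receptor core read on the opposite strand, AGAACA, 183 bases before the start site. Serpina1b and Serpina1c each held the HNF1 core, 26 and 27 bases before the start site, and the glucocorticoid receptor core, 174 and 173 bases before it. Serpina1b also held a C/EBP element, TTGCTTAA, 161 bases before the start site. Of the windows not shown, Serpina5 held a C/EBP element, 242 bases before the start site, and the glucocorticoid receptor core on the opposite strand, 216 bases before it. Serpina3a held the glucocorticoid receptor core, 84 bases before the start site, a TATA box, 29 bases before it and overlapped by a match on the opposite strand, and the interferon-stimulated response element core on the opposite strand, 34 bases after it. Over the 32851 windows of the table, 10.8% held the C/EBP element, 19.0% the glucocorticoid receptor core and 7.10% the HNF1 core. The other motifs were present in 8.30% (STAT3), 0.475% (HNF4), 16.3% (other nuclear receptors), 3.44% (interferon response) and 13.6% (TATA box) of the windows. The Serpina1b and Serpina1c windows were identical at 276 of 302 aligned positions (91.4%). Matches are descriptions of the letters and were not tested against the expression values.

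Values are log2 RMA expression values per probe set. RMA makes arrays comparable by subtracting background, equalising the distribution of values and summarising the probes of a set. Levels of different probe sets are not compared. Array medians ran from 5.61 to 5.64 and values in the table from 2.26 to 14.99. The first principal component carried 65.0% of the variance. The brightest of 6 Mtdh probe sets had 10.72, 10.40 and 10.81 in TG hepatocytes, against 8.75, 8.78 and 8.64 in WT hepatocytes, and it was the 1 Mtdh probe set past the threshold when all probe sets were tested. The differences of the 6 sets ran from -0.27 to 1.92, and their mean was 0.28 (adjusted p = 0.0116). The hepatocyte markers measured lay between 14.14 and 14.18 as a mean over the list in TG arrays and between 14.10 and 14.15 in WT arrays, and none was under the array median of 5.63. Of the 5 measured, 1, Ahsg, was past the threshold as higher, where 6.83% of all genes were.

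Seen as a family, 5 of the 8 Serpina genes were past the threshold as higher in TG hepatocytes, 0 as lower and 3 were not past it, by limma across all genes with a Benjamini-Hochberg adjusted p under 0.05. At an unadjusted p under 0.05 the counts were 5 and 1, where 13.8% of all genes were higher and 15.2% lower. Without moderation of the variance they were 3 and 0, where 4.52% of all genes were higher and 5.74% lower. At the adjusted threshold 15.9% of all 12393 genes were past it, 6.83% as higher and 9.05% as lower. Because the family was chosen for its increases, nothing is read from the count or from the median difference. The median difference of the 8 genes was 0.32 on the log2 scale, against 0.01 over all genes. For 7 members, 6 of them higher, TG and WT values did not overlap, which held for 34.5% of all genes, 16.9% as higher. The count of 5 became 3 without TG replicate 1, without WT replicate 1 or without WT replicate 3, and 4 without any of the other arrays, and the calls lost were those of Serpina6, Serpina5 or both.

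**Figure D1:**
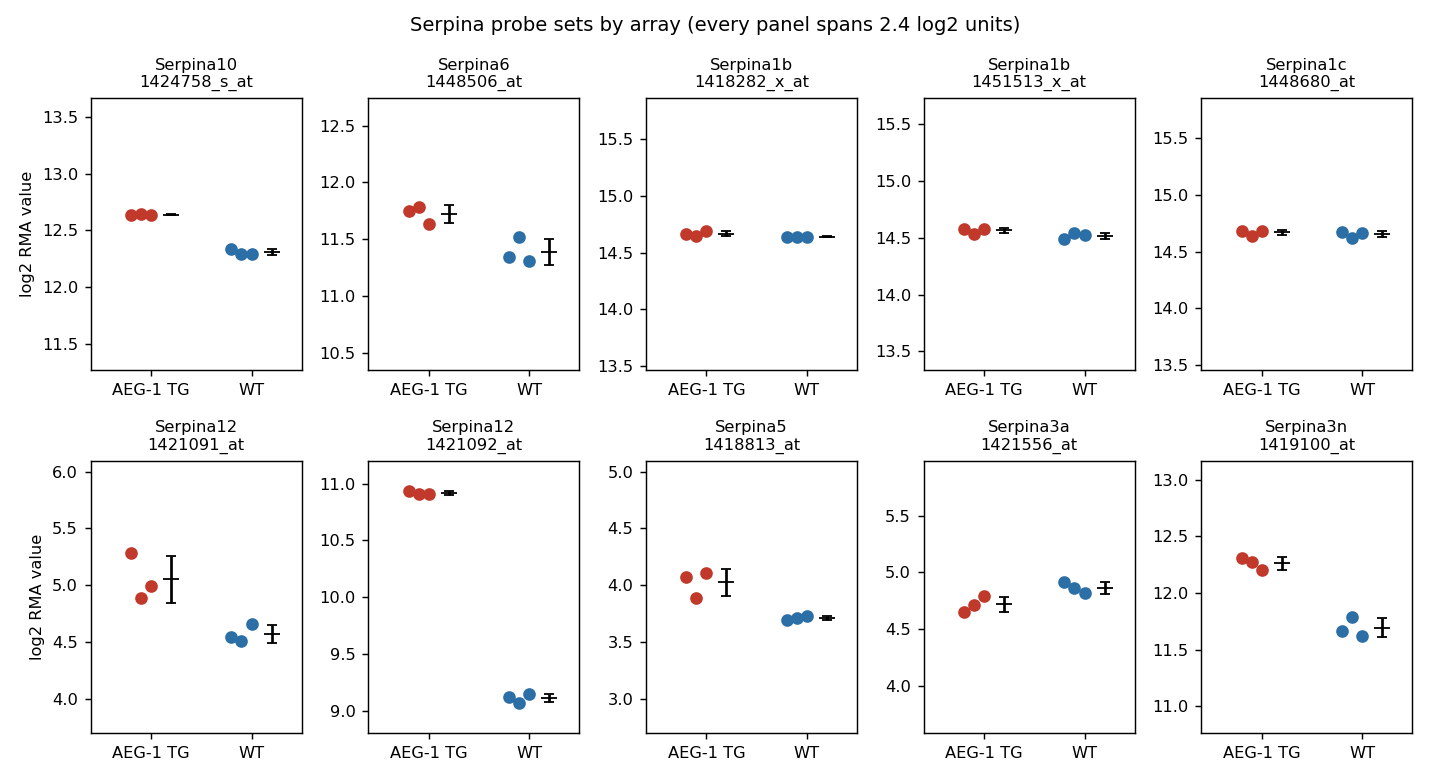
Log2 RMA values of the 10 Serpina probe sets on each array (points, TG left and WT right in each panel), with the mean and SD of 3 arrays in black. Panels span the same number of log2 units, so the separation of Serpina12 at probe set 1421092_at (10.92 in TG and 9.11 in WT) can be set against the near-equal values of Serpina1b and Serpina1c.

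Serpina12, which encodes vaspin, a serpin first described in visceral adipose tissue that inhibits kallikrein 7, showed the largest difference of the family. Its brightest probe set, 1421092_at, had 10.94, 10.91 and 10.91 in TG hepatocytes, against 9.12, 9.07 and 9.14 in WT hepatocytes. The arrays within a genotype lay close together, and every TG array was above every WT array. Serpina12 averaged 10.92 ± 0.02 in TG and 9.11 ± 0.04 in WT (SD, n = 3 each), a difference of 1.80 (SE 0.05, 95% interval 1.68 to 1.93) or 3.49-fold. In the order of increases it stood 13th of 12393 genes. The other Serpina12 probe set, 1421091_at, had 5.28, 4.89 and 4.99 in TG and 4.54, 4.51 and 4.66 in WT. That set lay under the array median of 5.63 on all 6 arrays and its difference was 0.48 (SE 0.10). Averaging both sets gave a Serpina12 difference of 1.14 (SE 0.07). Under the other 15 settings tried it remained close to the first value, with 1.83 as the highest.

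Serpina3n encodes a mouse counterpart of human alpha-1-antichymotrypsin, an inhibitor of serine proteases such as granzyme B that rises in the acute phase of inflammation. It had 12.31, 12.27 and 12.20 in TG hepatocytes, against 11.67, 11.79 and 11.63 in WT hepatocytes. No TG array overlapped the WT arrays. Means were 12.26 ± 0.05 in TG and 11.69 ± 0.08 in WT (SD, n = 3 each), and the difference of 0.57 (SE 0.06, 95% interval 0.42 to 0.72) corresponds to 1.48-fold. Leaving out any 1 array gave Serpina3n differences from 0.53 to 0.61.

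Serpina3a, another mouse copy of the antichymotrypsin group, was the member with a negative difference. It had 4.65, 4.71 and 4.79 in TG hepatocytes, against 4.92, 4.86 and 4.82 in WT hepatocytes. All 6 values were under the array median, and the groups were separated by a gap smaller than the spread within each. The Serpina3a difference was -0.15 (SE 0.06, 95% interval -0.29 to -0.01), and it was not past the threshold.

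Serpina10 encodes the protein Z-dependent protease inhibitor, a plasma serpin that blocks coagulation factor Xa together with protein Z. It had 12.64, 12.65 and 12.63 in TG hepatocytes, against 12.34, 12.29 and 12.29 in WT hepatocytes. The values hardly varied within a genotype, and the groups did not overlap. Averages of 12.64 ± 0.01 in TG and 12.31 ± 0.03 in WT (SD, n = 3 each) gave a Serpina10 difference of 0.33 (SE 0.05, 95% interval 0.22 to 0.45), or 1.26-fold. Its only probe set, 1424758_s_at, is of a kind that can match several transcripts.

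Serpina6 encodes corticosteroid-binding globulin, the plasma carrier of glucocorticoids. It had 11.74, 11.79 and 11.63 in TG hepatocytes, against 11.34, 11.51 and 11.30 in WT hepatocytes. The highest WT array, replicate 2, lay closer to the lowest TG array than to the other WT arrays. The mean was 11.72 ± 0.08 in TG and 11.39 ± 0.11 in WT (SD, n = 3 each), with a Serpina6 difference of 0.33 (SE 0.08, 95% interval 0.16 to 0.51), or 1.26-fold. Serpina6 was not past the threshold without TG replicate 1 (0.32), TG replicate 2 (0.30), WT replicate 1 (0.31) or WT replicate 3 (0.29).

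Serpina5 encodes the protein C inhibitor, which in the mouse is known mainly from the reproductive tract. It had 4.07, 3.89 and 4.11 in TG hepatocytes, against 3.69, 3.71 and 3.73 in WT hepatocytes. All 6 arrays were under the array median, and TG replicate 2 lay nearest to the WT values. The Serpina5 difference was 0.31 (SE 0.07, 95% interval 0.16 to 0.47). It was not past the threshold without TG replicate 1 (0.29), TG replicate 3 (0.27), WT replicate 1 (0.30), WT replicate 2 (0.31) or WT replicate 3 (0.32).

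Serpina1b and Serpina1c, mouse copies of alpha-1-antitrypsin, the plasma inhibitor of neutrophil elastase in humans, gave nearly the same values in both genotypes. Serpina1b at its brightest probe set, 1418282_x_at, had 14.67, 14.65 and 14.69 in TG, against 14.64, 14.64 and 14.64 in WT, and Serpina1c had 14.69, 14.64 and 14.68 in TG, against 14.67, 14.62 and 14.66 in WT. The 3 WT values of Serpina1b were almost equal, so its groups did not overlap although they were only 0.03 apart. Differences were 0.03 (95% interval -0.09 to 0.14) for Serpina1b and 0.02 (95% interval -0.10 to 0.14) for Serpina1c. The second Serpina1b probe set, 1451513_x_at, gave 0.05 (SE 0.06), with TG and WT arrays that overlapped. These values lie close to the highest value of the table, 14.99, and probe sets of near-identical copies can share signal. The 2 probe sets annotated to several Serpina1 genes stayed out of the family. The first, 1420553_x_at, had 14.07, 13.88 and 14.10 in TG and 13.80, 13.92 and 13.98 in WT, a difference of 0.11 (SE 0.08). The second, 1449321_x_at, had 11.96, 11.68 and 12.02 in TG and 11.57, 11.90 and 11.88 in WT, a difference of 0.10 (SE 0.12). In both the groups overlapped.

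**Figure D2:**
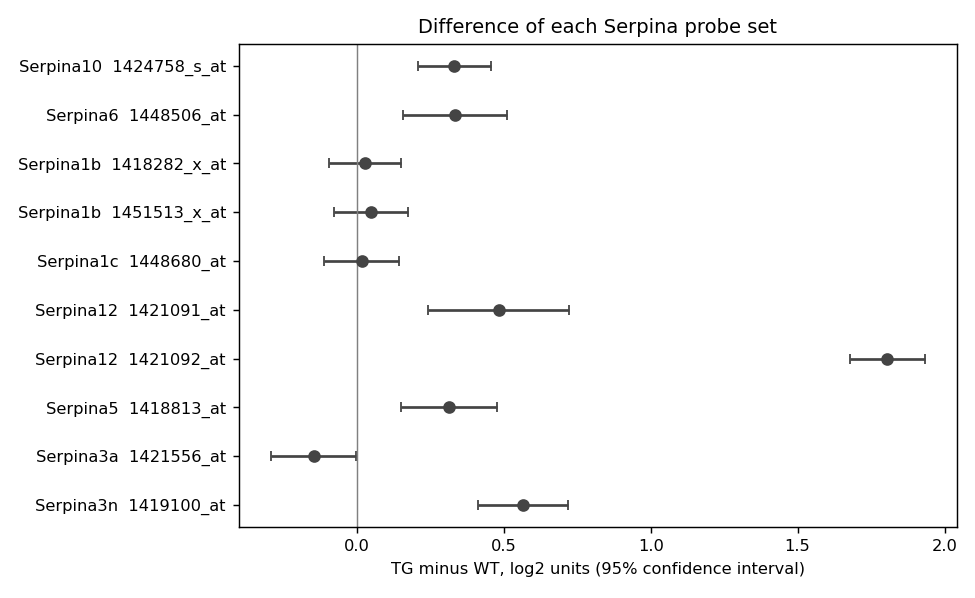
Difference of each Serpina probe set, TG minus WT in log2 units, with the 95% confidence interval from limma across all probe sets, genes from top to bottom in chromosomal order. Probe set 1421092_at of Serpina12 stands at 1.80 and the Serpina1b and Serpina1c sets lie at 0.05 or less.

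Counted over probe sets, 6 of 10 were past the threshold as higher and 0 as lower when all probe sets were tested, where 12.0% of all probe sets were past it and 5.33% as higher. At an unadjusted p under 0.05, where 12.7% of all probe sets were higher and 13.3% lower, the set of Serpina3a was also lower. The unmoderated model placed 3 as higher and 0 as lower, with 3.15% of all probe sets higher and 3.77% lower. Without WT replicate 1, 3 of the 10 were past it.

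All 8 members lie in 1 cluster on mouse chromosome 12. RefSeq's gene table of GRCm38.p6 lists 29 Serpina genes and pseudogenes, 28 of them on that chromosome, and 24 of the 29 are protein coding. No other measured gene lies between the members. In the order of the chromosome the differences began with 0.33 (Serpina10), 0.33 (Serpina6), 0.03 (Serpina1b) and 0.02 (Serpina1c). They went on with 1.80 (Serpina12), 0.31 (Serpina5), -0.15 (Serpina3a) and 0.57 (Serpina3n). Of the 24 protein coding Serpina genes only 8 were measured, so no pattern along the chromosome is read from this order. Of the 20 nearest measured genes outside, 10 on each side, 2 rose and 0 fell by limma (3 and 2 at an unadjusted p under 0.05, 0 and 0 without moderation). The shares over all genes were 15.9% in either direction by limma, 13.8% higher and 15.2% lower unadjusted, and 4.52% higher and 5.74% lower without moderation. Their median difference was 0.05, and 11 of the 20 were under the array median by mean level. The risen were the interferon-inducible Ifi27l2a (0.34, SE 0.09, adjusted p = 0.0399) and D430019H16Rik (0.26, SE 0.06, adjusted p = 0.0294), both under the array median. Otub2, a deubiquitinase, gave -0.27 at low signal (adjusted p = 0.0651), and Tcl1b3 gave 0.21 (adjusted p = 0.0852), neither past the threshold. The count of 2 became 0 without TG replicate 2 or WT replicate 2 and 1 without any other single array. Without WT replicate 3 that 1 was a decrease, and the calls of Ifi27l2a and D430019H16Rik were both lost.

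**Figure D3:**
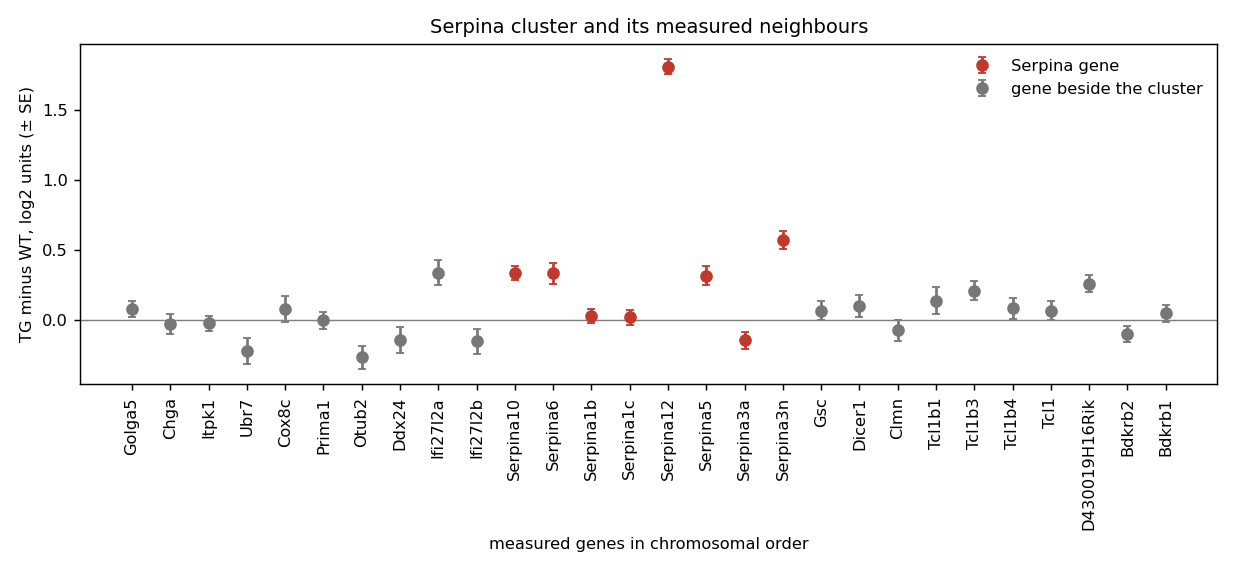
Difference between TG and WT (log2 units, points, with SE) of the measured genes in chromosomal order, Serpina genes in red and the 10 nearest measured genes on each side in grey. Serpina12 stands at 1.80, while the genes beside the cluster lie between -0.27 and 0.34.

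Serpins of other clades were set beside the family. Of 22 measured genes, 2 rose and 1 fell by limma, where 6.83% of all genes rose and 9.05% fell. Their median difference was 0.04. By mean level, 14 of the 22 were under the array median, against 2 of the 8 Serpina genes. Serpind1, heparin cofactor II, had 11.94 ± 0.03 in TG and 11.71 ± 0.03 in WT (SD, n = 3 each) and rose by 0.23 (SE 0.05, adjusted p = 0.0213). Serpinf2, the inhibitor of plasmin, rose by 0.22 (SE 0.06, adjusted p = 0.0418). Serpinb6b, an intracellular serpin at low signal, fell by 0.55 (SE 0.09, adjusted p = 0.00505), with 4.36 ± 0.04 in TG and 4.91 ± 0.17 in WT. Serpinb7, also at low signal, gave 0.33 (adjusted p = 0.0931), with 3.32 ± 0.07 in TG and 2.99 ± 0.24 in WT. This 0.33, the largest positive difference of the group, was near those of Serpina10 (0.33), Serpina6 (0.33) and Serpina5 (0.31). It was below those of Serpina12 and Serpina3n, but the family was chosen for its increases and nothing is read from this order. Without TG replicate 1, TG replicate 2, WT replicate 1 or WT replicate 3 the count of 3 fell to 1, Serpinb6b, and the Serpinf2 call was lost whichever array was left out.

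Proteases that serpins are known to act on, or that circulate with serpins, were listed with protein Z. Of 33 listed genes 32 were measured, and 2 rose and 0 fell by limma (8 and 0 at an unadjusted p under 0.05, 1 and 0 without moderation). Over all genes 6.83% rose by limma, 13.8% were higher unadjusted and 4.52% were higher without moderation. The median difference was 0.08, and 16 of the 32 were under the array median by mean level. Proz, protein Z, the cofactor of the Serpina10 product, had 10.59, 10.60 and 10.62 in TG hepatocytes, against 10.26, 10.42 and 10.41 in WT hepatocytes. Its groups did not overlap, and it rose by 0.24 (SE 0.06, adjusted p = 0.0349), but by 0.16 with an adjusted p of 0.0731 as the mean of its probe sets. F11, coagulation factor XI, rose by 0.29 (SE 0.07, adjusted p = 0.0234). The Proz call was lost whichever of the 6 arrays was left out, and that of F11 without TG replicate 1, TG replicate 2, WT replicate 1 or WT replicate 3. F7, coagulation factor VII, gave 0.22 (adjusted p = 0.0580) and the lymphocyte protease gene Gzmb gave 0.21 at low signal (adjusted p = 0.0661). Factor X, whose active form is a target of the Serpina10 product, is encoded by F10, which gave 0.17 (SE 0.06, adjusted p = 0.126). Klk7, a target of vaspin, gave 0.13 at low signal (SE 0.06, adjusted p = 0.236). Both were chosen after their values were seen. The count of 2 became 0 without TG replicate 1, TG replicate 2 or WT replicate 1 and 1 without any other single array. Without WT replicate 3 that 1 was Gzmb (0.27, adjusted p = 0.0348), since Proz and F11 were both lost. It became 7 with a variance trend.

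A further list, of regulators, held genes of inflammatory and glucocorticoid signalling, targets of the glucocorticoid receptor among them, and liver transcription factors. Of 35 listed genes 32 were measured, and 10 rose and 3 fell by limma, where 15.9% of all genes were past the threshold, with a median difference of 0.12. Il6, the cytokine that drives the acute phase, had 6.12, 5.92 and 5.998 in TG hepatocytes, against 4.55, 4.03 and 4.08 in WT hepatocytes. Every TG array was above every WT array, and the WT values were under the array median. Il6 rose by 1.80 (SE 0.13, adjusted p = 0.00011). Lifr, the leukaemia inhibitory factor receptor, had 11.79, 11.89 and 11.76 in TG, against 10.47, 10.55 and 10.46 in WT, and rose by 1.32 (SE 0.06, adjusted p = 8.99e-06). Its 3 probe sets disagreed, with differences from -0.27 to 1.32, and their mean rose by 0.33 (adjusted p = 0.00568). Socs1, a feedback inhibitor of cytokine signalling, rose by 0.78 (SE 0.08, adjusted p = 0.000439), while Foxa1, a hepatocyte pioneer factor, fell by 1.05 (SE 0.07, adjusted p = 6.06e-05). The remaining calls, named after their values were seen, were increases of Fkbp5 (0.52), Foxa3 (0.52), Il1b (0.51), Tsc22d3 (0.30), Il1r1 (0.28), Cebpb (0.24) and Nfkbia (0.21) and decreases of Cebpd (-0.47) and Cebpa (-0.25). Fkbp5 and Tsc22d3 are targets of the glucocorticoid receptor, and Cebpa, Cebpb and Cebpd encode C/EBP factors. Per1 (0.16, SE 0.09, adjusted p = 0.298) and Tat (-0.02, SE 0.07, adjusted p = 0.920), also targets of this receptor, were not past the threshold. Values that were not past the threshold, likewise named after they were seen, included 0.07 for Stat3 (SE 0.07, adjusted p = 0.578), -0.03 for Socs3 (SE 0.07, adjusted p = 0.813), 0.14 for Il6ra (SE 0.05, adjusted p = 0.105) and -0.07 for Hnf4a (SE 0.05, adjusted p = 0.459). The calls of Cebpa, Cebpb, Il1r1 and Nfkbia were each lost when certain single arrays were left out.

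**Figure D4:**
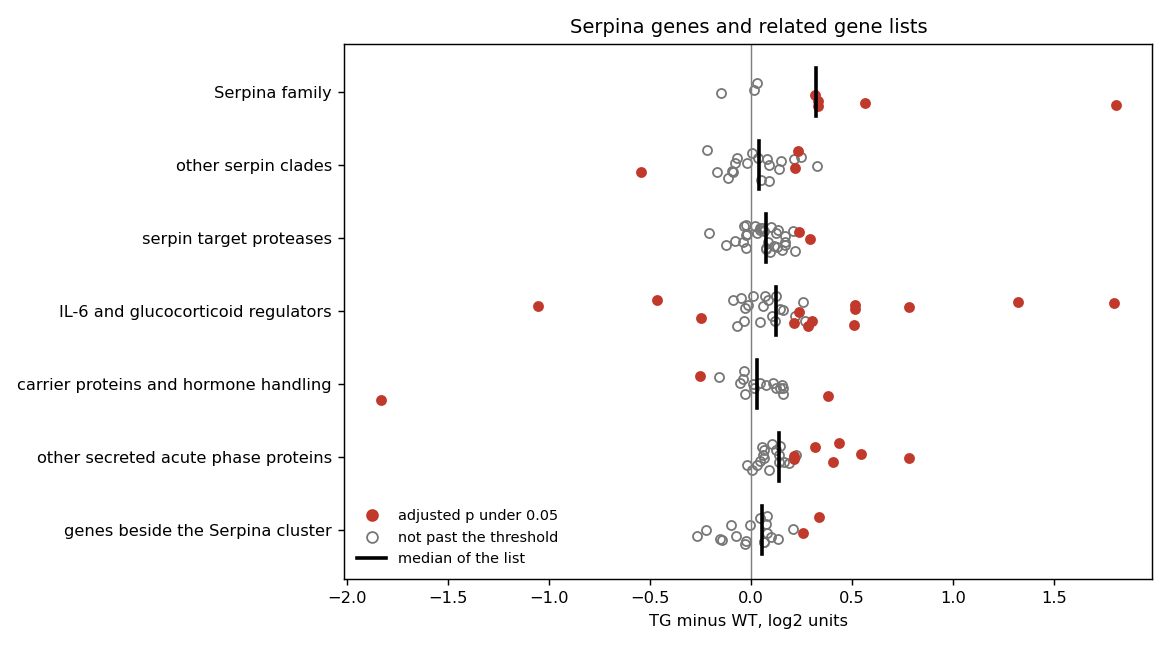
Difference between TG and WT (log2 units) of each Serpina gene and each gene of the related lists, filled where past the threshold by limma and open where not, with the list's median as a bar. The Serpina median lies at 0.32 and those of the other lists between 0.03 and 0.14. The family was chosen for its increases, so nothing is read from its higher median.

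Other plasma carriers and genes that handle the hormones bound by serpins gave 1 increase and 2 decreases among 18 measured of 23 listed, where 15.9% of all genes were past the threshold, with a median of 0.03. Apom, a lipid carrier in plasma, rose by 0.38 (SE 0.06, adjusted p = 0.00383). Dio1, the deiodinase that activates thyroid hormone, had 5.16, 5.46 and 5.23 in TG hepatocytes, against 7.17, 7.03 and 7.14 in WT hepatocytes. All TG values were under the array median, and Dio1 fell by 1.83 (SE 0.09, adjusted p = 9.65e-06). Akr1d1, a steroid reductase, fell by 0.25 (SE 0.07, adjusted p = 0.0459), and Thrsp, a thyroid hormone-responsive gene, gave -0.16 (adjusted p = 0.0728). For the glucocorticoid receptor gene Nr3c1 the difference was 0.13 (SE 0.06, adjusted p = 0.231), and for Hsd11b1, which regenerates active glucocorticoid, it was 0.15 (SE 0.05, adjusted p = 0.0811), both chosen after their values were seen. The Akr1d1 call was lost when any array other than TG replicate 2 was left out.

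Secreted acute phase proteins other than serpins gave 7 increases and 0 decreases among 24 by limma (12 and 0 at an unadjusted p under 0.05, 9 and 0 without moderation), with a median of 0.14. Over all genes 6.83% rose by limma, 13.8% were higher unadjusted and 4.52% were higher without moderation. Saa3, a serum amyloid, rose by 0.78 (SE 0.07, adjusted p = 0.00027). A2m, the protease trap alpha-2-macroglobulin, rose by 0.55 (SE 0.06, adjusted p = 0.000805) at levels under the array median, Lbp, which binds bacterial lipopolysaccharide, by 0.41 (SE 0.06, adjusted p = 0.00349) and Crp, a pentraxin, by 0.32 (SE 0.05, adjusted p = 0.005). The other risen members, named after their values were seen, were Orm3 (0.44), Ahsg (0.21) and Hp (0.21). Another 17 were not past the threshold. Among them, likewise named after their values were seen, were Saa2 (0.16), Saa1 (0.14), Orm1 (0.06), Lcn2 (0.03) and Apcs (-0.02). The adjusted p of these named genes ran from 0.0888 (Saa2) to 0.847 (Apcs). Ahsg was also among the hepatocyte markers, and the list did not separate proteins that rise in inflammation from those that fall. Leaving out any single array lost the calls of Ahsg and Hp.

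Profiles most like those of the members were found by the root mean square distance over the 6 arrays between log2 values centred on each gene's mean. Nearest to Serpina12 were Cxcl9 (distance 0.040), Cdk5rap1 (0.073), Usp18 (0.077), Ppp1r3c (0.085) and Ccl3 (0.098). Their differences ran from 1.67 for Usp18, a brake on interferon signalling, to 1.89 for Ppp1r3c, a glycogen-targeting phosphatase subunit, with Cxcl9 and Ccl3, both chemokines, at 1.87 and 1.89. Nearest to Serpina3n were Irf9 (distance 0.034), Htt (0.034), Avpr1a (0.035), C2 (0.037) and Elovl3 (0.040), with differences from 0.51 for the vasopressin receptor Avpr1a to 0.59 for Irf9, a factor of the interferon response. The 6 arrays share the 2 genotypes, and nothing on shared control is read from the distance.

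Markers of other liver cells were measured beside these values, and their counts stand against 6.83% of all genes risen. The mean over 10 Kupffer cell and macrophage markers lay between 6.79 and 6.85 in TG arrays and between 6.55 and 6.67 in WT arrays, with 2 of 10 risen, Marco and C1qc, and Marco under the array median. The mean over 6 endothelial markers lay between 6.36 and 6.43 in TG and between 6.07 and 6.23 in WT, with Clec4g and Kdr risen and Pecam1 under the array median. For 4 cholangiocyte markers it lay between 5.56 and 5.61 in TG and between 5.10 and 5.18 in WT, with Epcam risen, and Epcam, Krt19 and Krt7 under the array median. For 6 stellate cell markers it lay between 5.18 and 5.24 in TG and between 5.005 and 5.11 in WT, with none past the threshold. Of these, 3 were under the array median, Lrat, Col1a1 and Acta2. All 6 neutrophil markers and all 3 B cell markers measured, and 4 of 5 T and NK cell markers, were under the array median, and 0 of these changed by limma. The part of these cells in the Serpina differences was not tested, and more cells of a type and more RNA per cell cannot be told apart in such samples.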

How the data were processed

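RNA of 3 TG and 3 WT hepatocyte samples was hybridised to 1 Affymetrix array each. The deposited values are on the log2 scale. The submitters' processing notes name RMA and Expression Console of Affymetrix as the tools, with no version. No further normalization was applied. Of 22690 probe sets, 64 were controls, 20380 carried 1 gene symbol in the platform annotation, 691 several and 1555 none, and 20351 matched RefSeq's gene table. The brightest probe set stood for each of 12393 genes. TG was tested against WT with limma 3.58.1 in R 4.3.3 (lmFit and eBayes, two-sided, Benjamini-Hochberg over all genes, threshold 0.05), and the same model was run over all probe sets for the probe set values. The scripts were tested on simulated data with 200 changed genes. The precision is limited by the 3 arrays per genotype.

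The members and the gene lists were chosen with earlier results of these data known. The genes named were every Serpina gene and probe set, Mtdh, up to 4 genes of each related list with the smallest p and the 5 genes nearest to Serpina12 and to Serpina3n in profile. Other genes given with a difference were chosen after their values were seen. Cell type markers are named where they were past the threshold, and those under the array median are named or counted. Promoters came from RefSeq, build GRCm38.p6. Same-numbered arrays had correlations of deviations from the group means of -0.010, -0.0097 and 0.10, so the numbers were not taken to pair samples. Alternatives were the summary of probe sets, filters, normalization, the variance model, array weights, a replicate block, stricter thresholds and leaving out each array.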

Additional observations from a re-analysis of the deposited data

How the results depend on the processing

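The Serpina count of 5 was 3 without variance moderation, 3 at an adjusted p under 0.01, 1 with a 1.5-fold minimum and 3 to 4 with 1 array left out, and the 6 probe sets became 3 without moderation and 3 to 5 with 1 array left out. Of 124 alternative differences of members 122 moved by less than 1 SD, and the other 2 were Serpina12 as the mean of its probe sets (1.14) and Serpina1b after quantile normalization (0.0055). Other serpin clades (3) gave 1 without moderation, 1 at 0.01, 0 with the fold minimum and 1 to 2 with 1 array left out. The listed proteases (2) gave 7 among genes above the median level, 7 with a variance trend and 1 without moderation. These proteases gave 0 at 0.01, 0 with the fold minimum and 0 to 1 with 1 array left out. Regulators (13) gave 8 at 0.01, 4 with the fold minimum and 9 to 12 with 1 array left out. Carriers (3) gave 6 among genes above the median level, 7 with a variance trend, 5 without moderation, 1 with the fold minimum and 2 to 3 with 1 array left out. Acute phase genes (7) gave 14 with a variance trend, 1 with the fold minimum and 5 whichever array was left out. Genes beside the cluster (2) gave 1 among genes above the median level, 0 without moderation, 1 with array weights, 0 at 0.01, 0 with the fold minimum and 0 to 1 with 1 array left out. All genes (1967) gave 1271 without moderation, 918 at 0.01, 358 with the fold minimum and 1267 to 1700 with 1 array left out. The replicate block gave 1505 over all genes, 5 Serpina genes, 1 gene of other clades and 1 protease, and 2 of 6 arrays correlated best with their own number. The causes were not tested. Of 741 alternative values of the 47 named genes 89 lost a call, 16 gained one and 0 changed direction. Serpina10 and Serpina1b have no value without _s_at and _x_at probe sets, and Serpina5 and Serpina3a none among genes above the median level.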
